A study of Mus musculus with 6 samples.

Results

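Neutrophil surface receptors and granule genes were examined in mouse skin from knock-in and wild-type samples. The set held 10 genes chosen by name: 6 receptors (Clec4d, Clec4e, Csf3r, Fpr1, Fpr2 and Trem1) and 4 granule or secreted products (Retnlg, Ngp, Ltf and Mpo). A probe set, a group of short array sequences that reads a transcript, counted as a member when one of these was its only annotated gene symbol. By this rule 10 of the 45037 non-control probe sets were members, and they read 8 of the 18193 genes named on the array. No probe set listed Fpr1 or Retnlg as its only symbol, so neither was analysed here. The series compared 3 knock-in samples, whose labels give the genotype code KA and the source name KAB6, with 3 wild-type samples. Both groups had a C57BL/6 background, both were labelled as skin, and total RNA was hybridised to 1 Affymetrix array per sample. The labels do not name the gene changed in the knock-in, and they give no sex, age, body site or treatment. Nothing in the labels states whether each sample is a different animal, so p-values measure only the spread between these samples, which may be technical.

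Neutrophils are short-lived leukocytes that are made in the bone marrow, circulate in the blood and are scarce in undisturbed skin. Their granule proteins are transcribed in order as the cell matures: primary granule genes such as Mpo in promyelocytes, secondary granule genes such as Ltf and Ngp in myelocytes and metamyelocytes, and many surface receptors in the mature cell. A mature neutrophil therefore carries proteins whose messenger RNA it has largely stopped making, while receptor transcripts remain. Some of these receptors, Clec4d, Clec4e and Fpr2 among them, are also made by monocytes and macrophages.

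The promoters of 4 members are shown because Clec4d and Clec4e are paired lectin genes that were both higher in knock-in skin, and Ngp and Ltf are secondary granule genes that differed in their result. Each run holds 250 bases before and 50 bases after the start of the gene, 5′ to 3′ on the strand of the gene, from RefSeq on GRCm38.p6. Capitals mark matches to GAGGAA (on the other strand TTCCTC), the core bound by the myeloid factor PU.1, or to TTGCNNAA (on the other strand TTNNGCAA), the element bound by the C/EBP family. Both strands were searched, and no matches overlapped in these 4 promoters. The Clec4d promoter (chr6:123261857-123262156, forward strand) and the Clec4e promoter (chr6:123289822-123290121, reverse strand) lie on chromosome 6, and those of Ngp (chr9:110419558-110419857, forward strand) and Ltf (chr9:111019042-111019341, forward strand) on chromosome 9.
Clec4d: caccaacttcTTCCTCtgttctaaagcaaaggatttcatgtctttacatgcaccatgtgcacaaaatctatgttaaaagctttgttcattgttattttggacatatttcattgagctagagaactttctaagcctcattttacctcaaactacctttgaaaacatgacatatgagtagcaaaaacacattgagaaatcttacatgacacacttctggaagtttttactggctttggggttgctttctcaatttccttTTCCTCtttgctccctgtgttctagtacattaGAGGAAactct
Clec4e: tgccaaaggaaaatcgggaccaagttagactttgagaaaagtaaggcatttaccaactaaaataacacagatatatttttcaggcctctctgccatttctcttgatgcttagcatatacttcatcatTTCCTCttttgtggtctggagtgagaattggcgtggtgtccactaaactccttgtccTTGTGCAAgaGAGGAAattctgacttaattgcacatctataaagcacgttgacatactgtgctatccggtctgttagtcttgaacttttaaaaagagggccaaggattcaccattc
Ngp: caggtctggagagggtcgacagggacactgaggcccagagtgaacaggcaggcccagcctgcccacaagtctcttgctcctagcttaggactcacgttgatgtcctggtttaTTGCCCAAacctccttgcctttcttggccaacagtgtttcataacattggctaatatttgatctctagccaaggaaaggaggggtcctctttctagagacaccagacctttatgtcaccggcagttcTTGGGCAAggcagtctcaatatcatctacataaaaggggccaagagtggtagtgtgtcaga
Ltf: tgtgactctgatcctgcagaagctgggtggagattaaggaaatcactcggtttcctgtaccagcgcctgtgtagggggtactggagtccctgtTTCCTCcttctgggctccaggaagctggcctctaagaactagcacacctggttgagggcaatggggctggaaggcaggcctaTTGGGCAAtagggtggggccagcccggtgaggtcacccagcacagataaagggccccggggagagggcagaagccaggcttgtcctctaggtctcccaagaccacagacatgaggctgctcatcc
Clec4d held 3 matches to GAGGAA and none to TTGCNNAA, and Clec4e held 2 and 1. Ngp held 2 matches to TTGCNNAA and none to GAGGAA, whereas Ltf held 1 of each. Of the 10 members, whose promoters all matched by symbol, 7 held GAGGAA and 4 held TTGCNNAA. Over 32851 promoters of the same length, 28.3% held GAGGAA and 10.8% held TTGCNNAA. A match is a run of letters and not a measured binding site.

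Arrays of the same genotype resembled each other more than arrays of different genotypes. On the log2 scale Pearson's r over all probe sets was 0.983 to 0.984 within knock-in, 0.981 to 0.984 within wild-type and 0.949 to 0.963 between the groups. Over all probe sets 2705 (6.01%) were higher and 3519 (7.81%) lower in knock-in skin by limma with Benjamini-Hochberg adjustment at 0.05. Median centring of the arrays turned this split to 4103 higher and 2097 lower, because it moved the median difference of all probe sets by 0.13 on the log2 scale. The 3′ to 5′ ratio of actin, a sign of RNA integrity, was 1.21 to 1.28 in both groups. The 5′ control for 18S ribosomal RNA read 166 to 766 in knock-in and 1314 to 2286 in wild-type skin. The middle control read 410 to 919 in knock-in and 1009 to 1706 in wild-type skin. The 3′ control overlapped between the groups, at 220 to 306 in knock-in and 260 to 483 in wild-type skin. Xist read 3730 ± 282 in knock-in and 29.7 ± 2.44 in wild-type skin, and the Y-linked Eif2s3y 5.04 ± 0.544 in knock-in and 687 ± 42.6 in wild-type skin (SD, n = 3 each). Sex and genotype therefore cannot be told apart in any comparison given here. The part of these differences in the results below was not tested.

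All 5 measured receptors were higher in knock-in skin, by 2.07 (Csf3r) to 4.87 (Clec4d) on the log2 scale. Of the 3 measured granule genes, Ngp was higher by 1.78, whereas Mpo and Ltf did not pass the test. Counted as probe sets, 8 of 10 were higher, against 6.01% of all probe sets, and none was lower, against 7.81% (limma, also none at an unadjusted p under 0.05). Counted as genes, 6 of 8 were higher, against 8.48% of all genes, and none was lower, against 9.05%. All 3 knock-in arrays lay above all 3 wild-type arrays for 9 of the 10 member probe sets, against 13.1% of all probe sets. In RNA from whole tissue, more cells of a type and more RNA per cell cannot be told apart.

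Clec4d, or MCL, is a C-type lectin of myeloid cells that recognises mycobacterial glycolipid and brings Clec4e to the cell surface. Its signal, the linear MAS5 intensity, was 1897, 1019.6 and 1829 on knock-in arrays 1, 2 and 3, against 39.0, 39.9 and 32.0 on wild-type arrays 1, 2 and 3. Every knock-in value exceeded every wild-type value, and the wild-type values lay below the median of their arrays. The means were 1582 ± 488 in knock-in and 37.0 ± 4.35 in wild-type skin (SD, n = 3 each). On the log2(signal + 16) scale Clec4d was higher by 4.87 ± 0.22 (SE), a 29.1-fold difference on that scale (limma, adjusted p = 1.15e-05). Its probe set (1420804_s_at) is of a kind that can read more than 1 transcript. By size of this difference it stood at rank 13 of the 45037 probe sets.

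Clec4e, or Mincle, is the paired lectin that signals through the Fc receptor gamma chain on binding mycobacterial cord factor or material from dead cells. It had a pair of probe sets. The brighter (1420330_at) read 268, 206 and 408 in knock-in, against 0.555, 11.4 and 7.71 in wild-type skin. Its difference was 3.76 ± 0.27 on the log2 scale (limma, adjusted p = 0.000141). The other probe set of Clec4e (1420331_at) read 88.1, 49.9 and 79.0 in knock-in, against 4.38, 1.20 and 4.11 in wild-type skin, a difference of 2.18 ± 0.21 (limma, adjusted p = 0.000580). Both passed with no overlap between groups, and knock-in array 2 was the lowest of the knock-in arrays on each. The wild-type signals lay under the offset of 16 added before the logarithm, so the size of the Clec4e difference rests on that offset: the brighter probe set gave 5.68 with an offset of 1 and 2.31 with an offset of 64, and passed with each.

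Fpr2 is a receptor for formylated bacterial peptides and for host ligands such as serum amyloid A, and it draws neutrophils towards them. Its probe set (1422953_at) read 412, 253 and 544 in knock-in, against 37.8, 27.3 and 36.9 in wild-type skin. The difference was 3.01 ± 0.25 on the log2 scale, or 8.05-fold (limma, adjusted p = 0.000248), and no knock-in array fell among the wild-type arrays.

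Trem1 is a receptor that pairs with the adaptor Tyrobp and amplifies inflammatory signals in neutrophils and monocytes. Its brighter probe set (1447284_at) read 325, 161 and 255 in knock-in, against 25.6, 19.7 and 34.6 in wild-type skin. The difference was 2.59 ± 0.24 on the log2 scale (limma, adjusted p = 0.000496). The other Trem1 probe set (1460282_at) gave 134, 82.6 and 131 in knock-in, against 1.68, 7.64 and 3.58 in wild-type skin, and differed by 2.69 ± 0.22. On this log2 scale the differences of the probe sets of Trem1 lay within 1 SE of each other, whereas those of Clec4e did not. The wild-type signals of the other Trem1 probe set (1460282_at) also lay under the offset added before the logarithm. The size of its difference therefore rests on that offset, and the contrast with Clec4e was not tested with other offsets.

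Csf3r is the receptor for granulocyte colony-stimulating factor, the cytokine that drives neutrophil production and survival. Its probe set (1418806_at) read 159, 140.0 and 252 in knock-in, against 31.4, 32.9 and 27.1 in wild-type skin. Its difference of 2.07 ± 0.21 on the log2 scale was the smallest of the 5 receptors (limma, adjusted p = 0.000647). With an offset of 64 it was 1.37 and still passed.

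Among the granule products, Ngp is a cathelicidin-related protein of mouse secondary granules. Its probe set (1418722_at) read 129, 63.0 and 108 in knock-in, against 7.52, 20.8 and 24.8 in wild-type skin. The difference was 1.78 ± 0.29 on the log2 scale, with no overlap between the groups (limma, adjusted p = 0.00541), and it was 0.99 with an offset of 64.

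Mpo, or myeloperoxidase, makes hypochlorous acid in primary granules and is transcribed mainly in promyelocytes. Its probe set (1415960_at) read 41.1, 32.2 and 51.4 in knock-in, against 20.7, 21.3 and 20.2 in wild-type skin. The groups did not overlap, but the difference of 0.63 ± 0.18 (95% interval 0.22 to 1.04) missed the threshold (limma, adjusted p = 0.0502). It passed under 8 of 16 alternatives, among them median centring, quantile normalization and leaving out knock-in array 2 (adjusted p = 0.0486), and the adjusted p ranged from 0.0228 to 0.150 over all 16. Only 2 of the 6 Mpo signals, both in knock-in skin, stood above the median of their array.

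Ltf, or lactoferrin, is the iron-binding protein of secondary granules and is also made by glandular epithelium. Its probe set (1450009_at) read 33.3, 12.4 and 18.8 in knock-in, against 1.97, 23.4 and 30.3 in wild-type skin. The groups overlapped, all 6 signals lay below the median of their array, and the difference was 0.19 ± 0.36 with a 95% interval of -0.63 to 1.02 (limma, adjusted p = 0.787). The 1.78 of Ngp lies outside this interval, and 0 lies inside it. The Ltf difference was -0.22 without wild-type array 1 and -0.024 without knock-in array 1.

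**Figure D1:**
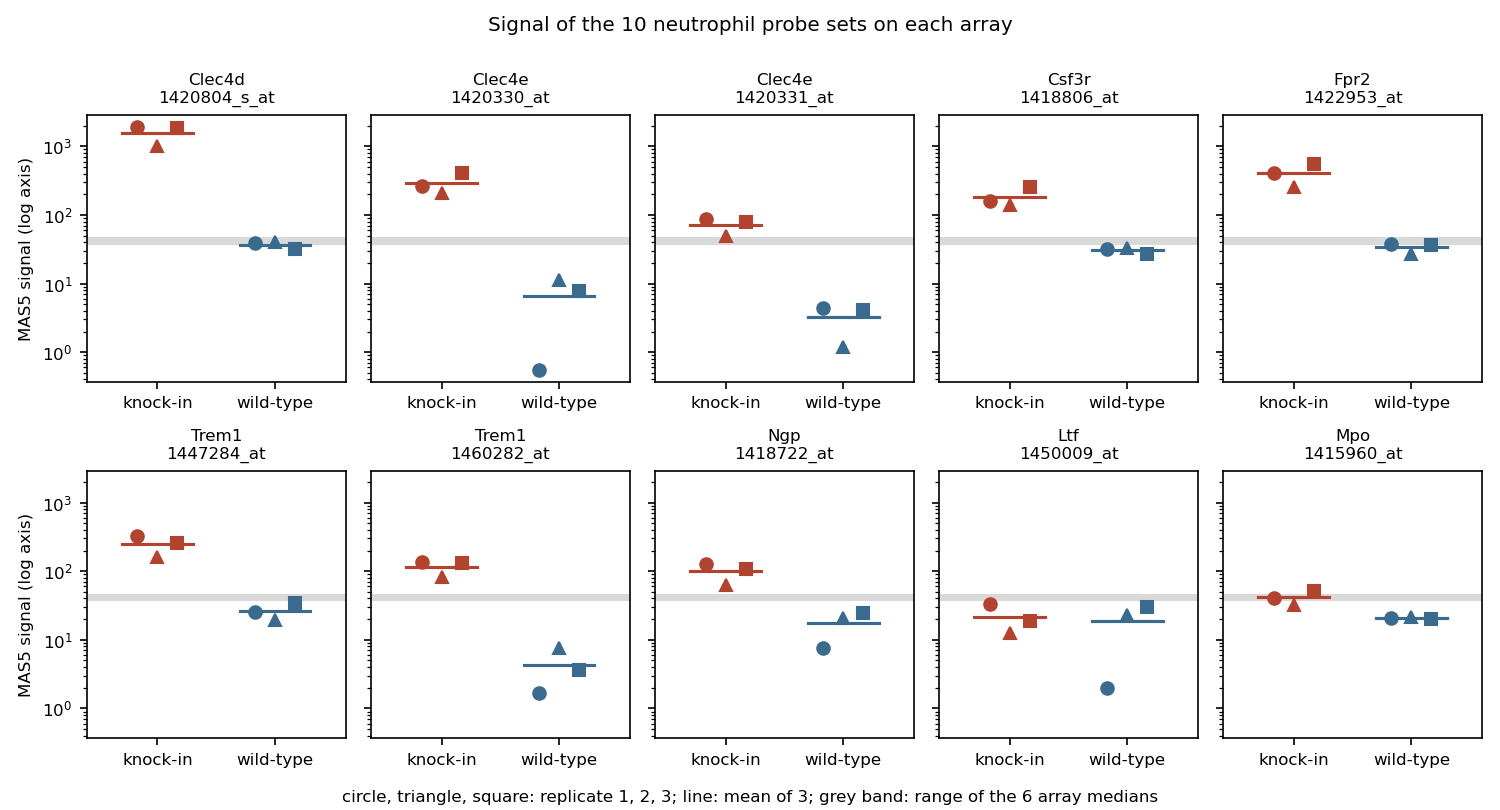
Signal of each member probe set on a log axis, with 1 point per array, knock-in on the left and wild-type on the right. The groups stand apart for 9 of 10 probe sets and overlap for Ltf.

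**Figure D2:**
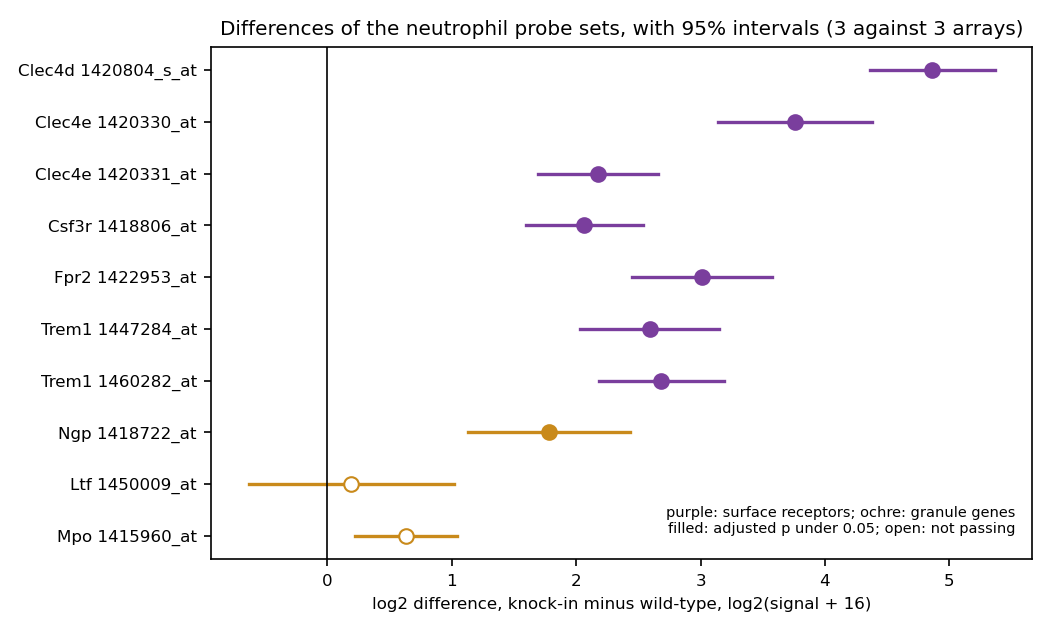
Difference between knock-in and wild-type skin in log2(signal + 16) for each member probe set, with its 95% interval. Intervals of the receptor probe sets and Ngp lie above 0, that of Mpo runs from 0.22 to 1.04, and that of Ltf crosses 0.

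The members also shared their lowest array within the knock-in group, but not their highest. The highest was array 1 for some member probe sets and array 3 for others, and it differed between the probe sets of Clec4e. Array 2 was the lowest knock-in array for all 10 member probe sets, by 0.36 (Mpo) to 0.87 (Fpr2) log2 units below the mean of knock-in arrays 1 and 3. For comparison, it was the lowest knock-in array in 35.8% of all probe sets and in 50.5% of those called higher. It was also the lowest for all 16 measured mature neutrophil markers, all 8 macrophage markers and all 5 pan-leukocyte genes, and for 0 of 6 mast cell markers. Among other granule genes, array 2 was the lowest for 10 of 12 secondary, 7 of 8 gelatinase or secretory vesicle and 2 of 6 primary granule genes. For the list around Csf3r, with G-CSF and GM-CSF genes, it was the lowest for 8 of 11 genes. Its median deviation was -0.70 over the 8 member probe sets that passed, -0.45 over mature neutrophil markers, -0.58 over macrophage markers, -0.56 over pan-leukocyte genes, 0.09 over mast cell markers and -0.01 over all probe sets. The coefficient of variation among the knock-in arrays ran between 23.0% and 49.7% over the member probe sets. Without array 2 the 6 genes that passed still passed, and Mpo passed as well.

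**Figure D3:**
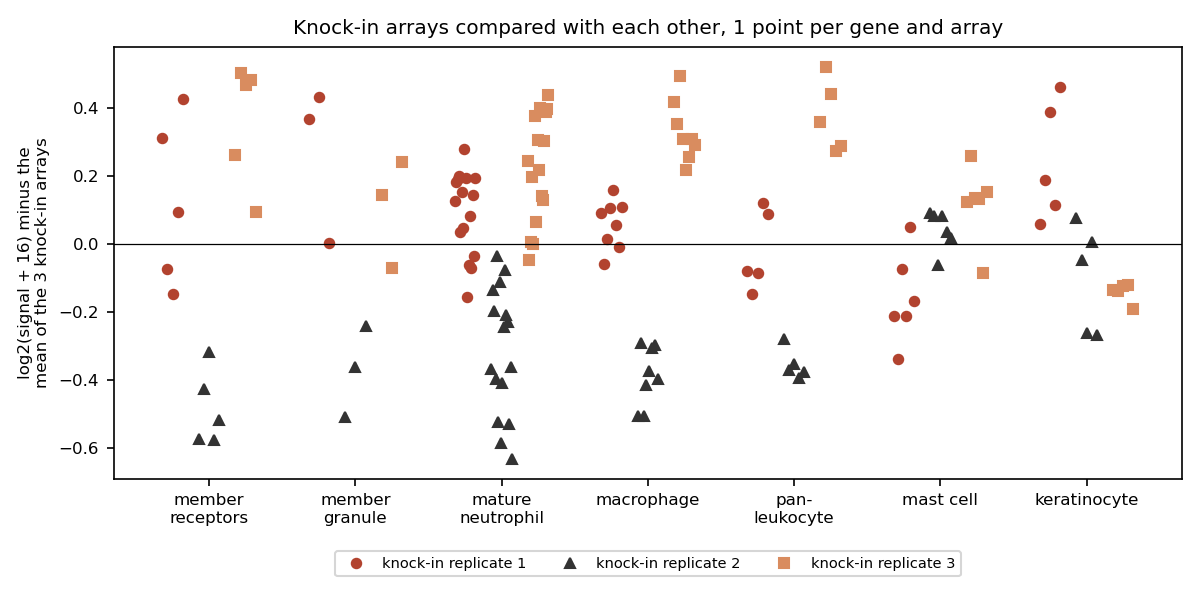
Deviation of each knock-in array from the mean of the 3 knock-in arrays, in log2(signal + 16), with 1 point per gene and array, for the members and for marker lists. Array 2, drawn as triangles, is the lowest for all member genes and for the neutrophil, macrophage and pan-leukocyte lists, and lies near 0 for mast cell markers.

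The 5 genes whose log2 signals followed the mean standardised profile of the 8 measured members most closely were Klhl6, Samhd1, Adam15, Bst1 and Fxyd5. Pearson's r was 0.998 for Klhl6 and 0.997 for Fxyd5 over the 6 arrays, which share the split between genotypes, so this is a description. Klhl6 averaged 191 ± 67.4 in knock-in and 33.8 ± 8.58 in wild-type skin. Bst1, a surface enzyme of myeloid cells, averaged 226 ± 76.4 in knock-in and 33.8 ± 11.1 in wild-type skin (SD, n = 3 each).

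Partners and relatives of the lectin and Trem receptors were examined next. Of 14 measured genes, 7 were higher, 1 was lower and 6 did not pass, with a median log2 difference of 0.52, against -0.02 over all genes. Bcl10, a signalling adaptor downstream of Clec4e, was higher by 0.67 ± 0.08 (limma, adjusted p = 0.00186). Trem3, an activating relative of Trem1 in mouse, averaged 77.9 ± 15.6 in knock-in and 19.6 ± 9.63 in wild-type skin, higher by 1.42 ± 0.23 (limma, adjusted p = 0.00576). Treml4 was higher by 1.06 ± 0.20 (limma, adjusted p = 0.0117, and 0.0567 without wild-type array 3). It stood above the array median on 0 arrays, and its wild-type signals lay under the offset. Its difference ranged from 0.42 to 2.20 over the alternatives. Clec4b1, a lectin of the same cluster, was the gene that was lower: it averaged 9.42 ± 6.03 in knock-in and 99.4 ± 39.8 in wild-type skin, a difference of -2.16 ± 0.29 (limma, adjusted p = 0.00248). Clec4n, the lectin Dectin-2, differed by -0.12 ± 0.13 and did not pass.

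The signalling adaptors Fcer1g and Tyrobp were chosen after their values were seen. Fcer1g, the chain used by Clec4e, averaged 987 ± 314 in knock-in and 471 ± 133 in wild-type skin (log2 difference 1.03 ± 0.25, limma, adjusted p = 0.0290). Tyrobp averaged 1336 ± 407 in knock-in and 689 ± 145 in wild-type skin (0.91 ± 0.23, limma, adjusted p = 0.0320). Each call was lost without wild-type array 1 or 3 and without knock-in array 1 or 3, with adjusted p values up to 0.110 for Fcer1g and 0.117 for Tyrobp. The count of 7 higher genes was 4 without wild-type array 1, 2 without wild-type array 3, and 3 without knock-in array 1 or 3.

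Of 8 other chemoattractant receptors measured, 5 were higher and 3 did not pass, with a median log2 difference of 1.37. Ccr1, a receptor for inflammatory chemokines, averaged 522.5 ± 161 in knock-in and 29.2 ± 8.45 in wild-type skin, higher by 3.54 ± 0.24 (limma, adjusted p = 9.97e-05). Ltb4r1, the leukotriene B4 receptor, averaged 298 ± 28.6 in knock-in and 79.5 ± 8.01 in wild-type skin, higher by 1.72 ± 0.12. Cxcr2, which responds to neutrophil-attracting chemokines, averaged 76.2 ± 35.5 in knock-in and 2.85 ± 1.17 in wild-type skin, higher by 2.23 ± 0.26 (limma, adjusted p = 0.00130). Cxcr4, the receptor that retains neutrophils in the marrow, was higher by 1.45 ± 0.12. The other gene that passed, the complement receptor C5ar1, was chosen after its values were seen and was higher by 1.30 ± 0.21.

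The list around Csf3r held genes of the G-CSF axis. It also held Csf2, which encodes a different factor, GM-CSF, and the GM-CSF receptor genes Csf2ra and Csf2rb. Of 11 measured genes in this mixed list, 4 were higher and 7 did not pass, with a median log2 difference of 0.36. Csf3, the ligand itself, averaged 100.8 ± 9.16 in knock-in and 12.8 ± 13.6 in wild-type skin, higher by 2.11 ± 0.29 (limma, adjusted p = 0.00296). Socs3, a feedback inhibitor induced by the receptor, averaged 935 ± 139 in knock-in and 162 ± 27.6 in wild-type skin, higher by 2.42 ± 0.14 (limma, adjusted p = 5.28e-05). Stat3, which carries the signal to the nucleus, was higher by 0.88 ± 0.09. Socs3 and Stat3 also serve other cytokine receptors and other skin cells. Whether signalling from Csf3r had a part in either difference was not tested. Csf2rb, a GM-CSF receptor gene, passed with 0.94 ± 0.24 (limma, adjusted p = 0.0352). Its call was lost without wild-type array 1 or 3 or knock-in array 1 or 3 (up to 0.106). Spi1, which encodes PU.1 and was chosen after its values were seen, differed by 0.74 ± 0.21 and missed the threshold (limma, adjusted p = 0.0542). It passed under 7 of 16 alternatives, and the adjusted p ranged from 0.0184 with median centring to 0.168.

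Granule genes were then grouped by stage. Of 6 measured primary granule genes besides Mpo, 1 was higher and 5 did not pass, with a median log2 difference of -0.17. The one that passed, Srgn, encodes the granule proteoglycan serglycin, which many other leukocytes also make. It averaged 4954 ± 1142 in knock-in and 731 ± 32.9 in wild-type skin, higher by 2.71 ± 0.16 (limma, adjusted p = 5.15e-05). The promyelocyte genes Ms4a3, Prtn3 and Ctsg differed by -0.51 ± 0.21, -0.39 ± 0.23 and -0.33 ± 0.28. For Ms4a3 all knock-in arrays lay below all wild-type arrays (limma, adjusted p = 0.157). Elane, neutrophil elastase, was chosen after its values were seen. It averaged 9.34 ± 8.61 in knock-in and 9.45 ± 8.76 in wild-type skin (limma, adjusted p = 0.995). Ms4a3, Ctsg and Elane stood above the array median on 0 of 6 arrays, and Prtn3 on 1. A difference in these dim genes could therefore be missed.

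Of 12 measured secondary granule genes besides Ngp and Ltf, 11 were higher, with a median log2 difference of 1.38. The gene that did not pass, Cybb, a subunit of the phagocyte oxidase, was chosen after its values were seen and differed by 0.38 ± 0.21. Chil3 was higher by 7.21 ± 0.27, Lcn2 by 5.97 ± 0.26 and Ptx3 by 3.21 ± 0.35. Mmp8, neutrophil collagenase, averaged 749 ± 241 in knock-in and 15.5 ± 3.71 in wild-type skin, higher by 4.55 ± 0.24 (limma, adjusted p = 2.33e-05). Chil3, Lcn2 and Ptx3 are also made outside neutrophils, Chil3 and Ptx3 by macrophages and Lcn2 by epithelium. Camp, the cathelicidin related to Ngp, averaged 46.4 ± 6.70 in knock-in and 7.38 ± 1.15 in wild-type skin, higher by 1.41 ± 0.17 (limma, adjusted p = 0.00135).

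Among gelatinase and secretory vesicle genes, which come later in maturation, 6 of 8 were higher and 2 did not pass, with a median of 1.51. Adam8 was higher by 2.48 ± 0.20, Itgam by 2.23 ± 0.38, Mmp9 by 2.07 ± 0.27 and Itgb2 by 1.71 ± 0.26. Of 16 measured mature neutrophil markers, 12 were higher, 1 was lower and 3 did not pass, with a median of 1.77. S100a9 was higher by 5.72 ± 0.19, S100a8 by 4.26 ± 0.15, Hdc by 3.96 ± 0.21 and Stfa2l1 by 3.78 ± 0.13. The lower gene, Sorl1, was chosen after its values were seen. It differed by -0.59 ± 0.15 (limma, adjusted p = 0.0359), a call lost when any array other than knock-in array 3 was left out (up to 0.132) and with median centring (0.0861). Ly6g, a defining surface marker of neutrophils, had no probe set under its symbol alone. S100a8 and S100a9 are also made by keratinocytes, so the list does not belong to neutrophils alone.

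Of 10 close relatives of the members measured, 3 were higher, 1 was lower and 6 did not pass, with a median log2 difference of 0.03. The lower one was Retnla, a resistin-like gene of the family that holds Retnlg, which averaged 222 ± 36.8 in knock-in and 1132 ± 499 in wild-type skin (-2.16 ± 0.33, limma, adjusted p = 0.00415). Retn, resistin, averaged 670 ± 109 in knock-in and 503 ± 180 in wild-type skin and did not pass, nor did Retnlb. Meltf, a relative of Ltf, and the peroxidases Epx and Lpo did not pass either. Trem2 passed with 1.13 ± 0.30 (limma, adjusted p = 0.0418) but not without knock-in array 1, 2 or 3 or wild-type array 2 or 3 (up to 0.136), with an offset of 1 (0.0554) or with eBayes without trend (0.0518). The other Trem2 probe set, below the array median on all arrays, averaged 20.9 in knock-in and 26.3 in wild-type skin and differed by -0.19 ± 0.17 (limma, adjusted p = 0.527).

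**Figure D4:**
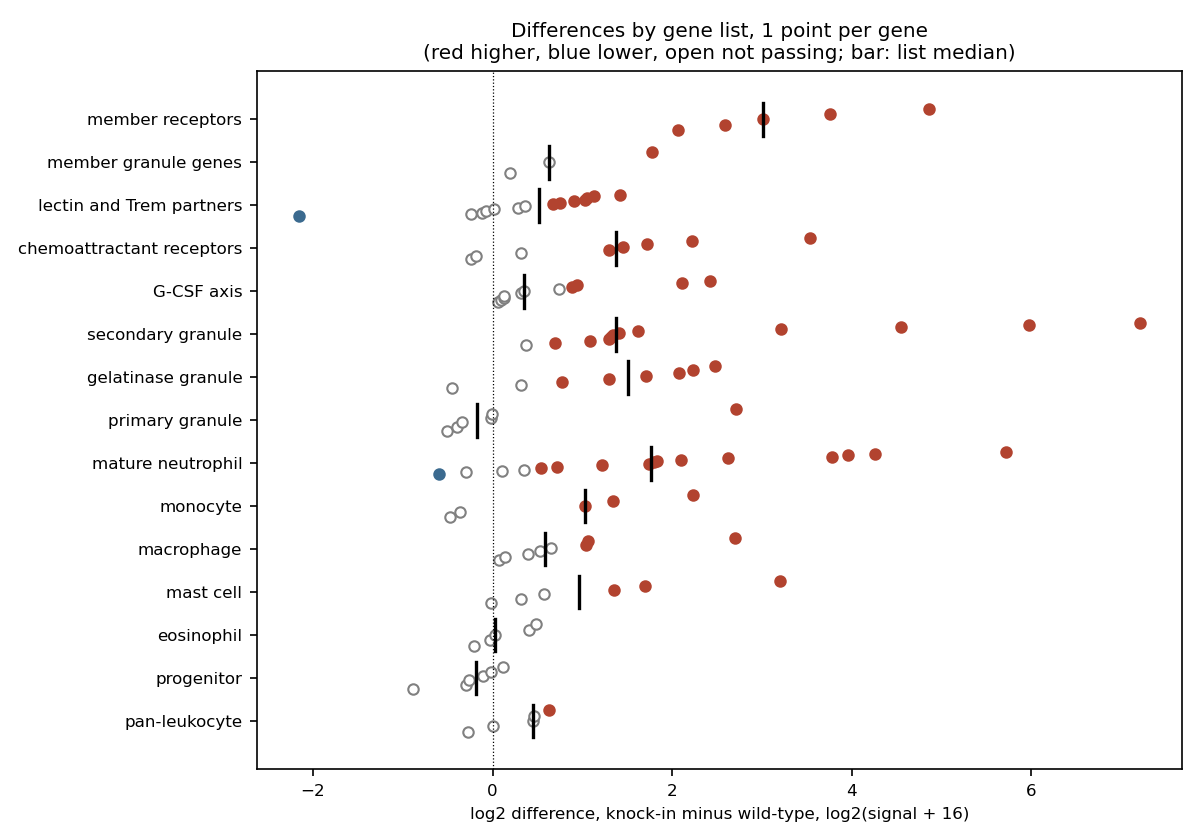
Difference between knock-in and wild-type skin in log2(signal + 16) for the genes of each list, with 1 point per gene and a bar at the list median. Points of the receptor, secondary granule and mature neutrophil lists lie mostly above 0, and those of the primary granule list lie near or below 0 apart from Srgn.

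Markers of other cells that carry some of these transcripts were measured alongside. Of 8 macrophage markers 3 were higher (5 without knock-in array 2), and their summed signal was 10379 to 16405 in knock-in and 6204 to 9218 in wild-type skin. Cd163, a scavenger receptor of macrophages, averaged 2467 ± 521 in knock-in and 378 ± 141 in wild-type skin, higher by 2.70 ± 0.27 (limma, adjusted p = 0.000658). C1qa was higher by 1.07 ± 0.16 and Mrc1 by 1.04 ± 0.21, the call of Mrc1 being lost without wild-type array 3 or knock-in array 1 or 3 (up to 0.0564). The defining macrophage markers Adgre1 and Csf1r, chosen after their values were seen, differed by 0.14 ± 0.24 and 0.07 ± 0.20 and did not pass.

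Of 5 monocyte markers 3 were higher, with a summed signal of 3439 to 5725 in knock-in and 1609 to 2303 in wild-type skin. Plac8 was higher by 2.24 ± 0.16 and Ms4a6c by 1.35 ± 0.18, and F13a1 by 1.03 ± 0.23, whose call was lost without wild-type array 1 or 3 or knock-in array 1 or 3 (up to 0.0876). The 2 that did not pass had negative differences: Cx3cr1 of -0.47 ± 0.19 (limma, adjusted p = 0.155), with all knock-in arrays below all wild-type arrays, and Ccr2, chosen after its values were seen, of -0.36 ± 0.27 with overlap. Of 6 mast cell markers 3 were higher, with a summed signal of 2403 to 3004 in knock-in and 968 to 1382 in wild-type skin. Tpsb2, a mast cell tryptase, was higher by 3.20 ± 0.15, Cma1 by 1.69 ± 0.19 and Cpa3 by 1.35 ± 0.17. None of 5 eosinophil markers passed (limma, 1 at an unadjusted p under 0.05, Siglecf), none was above the array median on at least 3 arrays, and their summed signal was 37.7 to 54.0 in knock-in and 18.8 to 51.6 in wild-type skin. None of 6 progenitor markers passed either (limma, 1 at an unadjusted p under 0.05, Myb), with a median of -0.18. Myb differed by -0.88 ± 0.25 (limma, adjusted p = 0.0503) and was called lower under 7 alternatives, and Siglecf, at 0.49 ± 0.18, was called higher without wild-type array 3 (0.0399) and with median centring (0.0405).

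Of 5 pan-leukocyte genes 1 was higher, and their summed signals overlapped, at 1902 to 3178 in knock-in and 1693 to 2509 in wild-type skin. Ptprc, which encodes CD45 and was chosen after its values were seen, averaged 469 ± 113 in knock-in and 466 ± 112 in wild-type skin, a difference of 0.01 ± 0.20 (limma, adjusted p = 0.986). Arhgdib passed with 0.62 ± 0.17 (limma, adjusted p = 0.0442), a call lost when any of the arrays other than knock-in array 2 was left out (up to 0.153).

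Keratinocytes form the bulk of the epidermis. Of 5 keratinocyte markers 2 were higher and 3 did not pass, with a median log2 difference of 0.39 and a summed signal of 35233 to 46742 in knock-in and 31417 to 36379 in wild-type skin. Krt14 was higher by 0.73 ± 0.11 (limma, adjusted p = 0.00497) and Krt5 by 0.52 ± 0.10 (limma, adjusted p = 0.0107), both keratins of the basal layer. Of 3 red cell markers, Hba-a2, an alpha globin, was lower, with a difference of -1.04 ± 0.13 (limma, adjusted p = 0.00183), Alas2, an enzyme of heme synthesis, was higher by 1.27 ± 0.17 (limma, adjusted p = 0.00239), and Hba-a1 did not pass. The summed signal of the 3 red cell markers was 129 to 149 in knock-in and 132 to 153 in wild-type skin. The part of macrophage, monocyte, mast cell, keratinocyte and red cell transcripts in the receptor and granule gene differences was not tested.

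For some named genes outside the members, other probe sets differed in call from the one that stood for the gene. A dim second probe set of Ptx3 differed by -0.13 ± 0.24 and one of Tpsb2 by 0.20 ± 0.16, and neither passed. Another probe set of Myb was called lower, with a difference of -1.03 ± 0.21 (limma, adjusted p = 0.0156). Bcl10, Stat3, Ms4a6c, Sorl1 and Krt14 also had at least 1 probe set that did not pass, with the same sign.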

How the data were processed

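The deposited values are linear signal intensity values of probe sets, which the authors made with MAS5 per the submitters' processing notes; the sources used here give neither its version nor its settings. The 2% trimmed mean was 150 on every array, so no further scaling was applied. The table holds no detection calls. Of 45101 probe sets, 64 controls were left out. Of the rest, 34945 had 1 symbol in the platform annotation, 932 had several and 9160 had none, and 34741 matched RefSeq by gene ID.

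All 45037 remaining probe sets, with no filter on dim ones, were put on the log2(signal + 16) scale and tested with limma 3.58.1, run in R 4.3.3 (lmFit, eBayes with trend, two-sided) and Benjamini-Hochberg adjustment at 0.05. Differences are knock-in minus wild-type. The offset understates changes of dim genes. The probe set with the highest mean over 6 arrays stood for its gene. The procedure was tested on simulated data in which changes were placed only in brighter probe sets. That test does not cover changes of dim genes.

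The members and lists were chosen with earlier results of these data known. Named are all members, up to 4 genes per list with the smallest p, all relatives of the members, and the 5 genes most like the members in profile. Other genes are marked as chosen after their values were seen. The 3 arrays per group limit the precision: an exact permutation test of 3 against 3 cannot go below p = 0.1. Alternatives were other offsets, filters, scalings, variance priors, array weights, gene summaries, a replicate block and leaving out each array.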

Additional observations from a re-analysis of the deposited data

How the results depend on the processing

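The 6 member genes that passed kept their direction and call under every alternative that kept their probe sets. Their log2 differences ranged from 3.98 to 5.33 for Clec4d, 2.31 to 5.68 for Clec4e, 1.37 to 2.51 for Csf3r, 2.20 to 3.47 for Fpr2, 1.75 to 3.14 for Trem1 and 0.99 to 2.52 for Ngp, the ends being set by the offsets of 64 and 1. With only probe sets of mean signal above 100, 5 member probe sets were called, and when single arrays were left out 8 to 9 were. Over all probe sets, 2705 higher and 3519 lower became 4103 and 2097 with median centring, 1729 and 1908 with 1 probe set per gene and a dim filter, and 1612 and 1794 with a replicate block. Leaving out single arrays gave 1561 to 2303 higher and 1608 to 2836 lower. Replicate numbers did not pair the samples: the deviations of same-numbered arrays correlated at -0.13, -0.15 and -0.01. The replicate block left all 6 member calls in place. Of 46 other named genes that passed, 36 kept their call throughout and 10 lost it under some alternative. Besides the arrays given above, eBayes without trend ended the calls of Fcer1g (adjusted p = 0.0521), Tyrobp (0.0575), Csf2rb (0.0580), Sorl1 (0.0597), Trem2 (0.0518) and Arhgdib (0.0771). The replicate block ended those of Fcer1g (0.0721), Tyrobp (0.0776), Trem2 (0.0696), Arhgdib (0.0939) and Krt5 (0.0600), and an offset of 64 that of Arhgdib (0.050023). Mpo and 5 other named genes gained a call under some alternative: Spi1, Myb and Siglecf as given above, Cd68 with median centring (0.049986) and without knock-in array 2 (0.0210), and Mcpt4 without wild-type array 2 (0.0237). Several small differences that did not pass changed sign. Leaving out single arrays gave -0.22 to 0.46 for Ltf, -0.27 to 0.26 for Elane, -0.25 to 0.024 for Meltf, -0.071 to 0.39 for Adgre1, -0.11 to 0.22 for Csf1r and -0.17 to 0.18 for Ptprc. Elane was 0.0044 with an offset of 1, 0.014 with quantile normalization and 0.13 with median centring, which also gave 0.0039 for Meltf and 0.013 for Clec4n. Ptprc was -0.0023 with quantile normalization and -0.015 with array weights. The causes were not tested.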
